A study of Mus musculus with 4 samples.

Results

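Lst1, Aif1, Tnf and Ltb are neighbouring immune genes of the MHC class III region, the gene-dense stretch between the class I and class II genes of the mouse major histocompatibility complex on chromosome 17. They were taken by symbol, 4 of the 22026 genes listed in every library, with their values in macrophages lacking RBP-J and in control macrophages of these same data known. The differences of the 4 genes between the genotypes are therefore given as a description and without a test. RNA was sequenced from bone marrow derived macrophages of C57BL/6 mice in 4 libraries. Of these, 2 were RBP-J KO (genotype Rbpj f/f;LysM cre) and 2 were WT (wildtype control). LysM cre deletes floxed alleles in cells that use the Lyz2 promoter, that is, in the myeloid lineage, and the labels do not say whether the controls carried Cre or floxed alleles. All marrow came from mice of 8 weeks and was grown for 3 days in CMG14-12 supernatant, equivalent to 20 ng/ml of M-CSF, the growth factor of macrophages. The labels do not say what separates the replicates of a group, so a p-value here reflects the spread of these libraries alone.

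RBP-J binds DNA and carries the signal of Notch receptors to their target genes, and without Notch it can hold such genes silent. Tnf encodes tumour necrosis factor, the inflammatory cytokine that macrophages release when they sense microbes. Ltb encodes lymphotoxin beta, the membrane anchor that holds the Lta product at the cell surface as a ligand of the lymphotoxin beta receptor, best known from lymphocytes and the building of lymphoid organs. Aif1 encodes Iba1, a calcium-binding protein that bundles actin and is widely used to stain macrophages and microglia. Lst1 encodes leukocyte-specific transcript 1, a small membrane protein of myeloid cells, whose human counterpart takes part in forming membrane nanotubes.

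Rbpj itself was at 51.45 and 77 FPKM in RBP-J KO replicates 1 and 2, against 355 and 573 FPKM in WT replicates 1 and 2, where FPKM counts fragments per length of transcript and per size of the library. Both RBP-J KO libraries were thus below both WT libraries for the targeted gene. The replicate numbers divide the libraries in other ways. Both replicate 1 libraries expressed the Y-linked gene Ddx3y (174 FPKM in RBP-J KO and 193 FPKM in WT) and listed Xist at 0, whereas both replicate 2 libraries listed Ddx3y at 0 and had Xist at 290 FPKM in RBP-J KO and 268 FPKM in WT. Values are accordingly compared inside each replicate number, as pair 1 and pair 2. Between 12142 and 12707 genes were above 0 per library, and the sequencing depth is unknown.

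Lst1 showed the widest difference of the 4 genes. It was at 1424 FPKM in RBP-J KO replicate 1 and 1023 FPKM in RBP-J KO replicate 2, against 261 FPKM in WT replicate 1 and 216 FPKM in WT replicate 2. Both RBP-J KO libraries lay above both WT libraries, and the replicates of a genotype lay closer to each other than to the other genotype. In pair 1 the RBP-J KO level was 5.45-fold that of WT, and in pair 2 it was 4.73-fold. Lst1 averaged 1224 ± 283 FPKM in RBP-J KO and 239 ± 31.8 FPKM in WT (SD, n = 2 each), a log2 difference of 2.34 on the log2(FPKM + 1) scale used for all differences below. In RBP-J KO its level exceeded that of 98.3% and 97.7% of the genes above 0 in replicates 1 and 2, against 85.3% and 82.5% in WT.

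Aif1, the Iba1 gene, was at 1752 and 946 FPKM in RBP-J KO replicates 1 and 2, against 618 and 260.1 FPKM in WT replicates 1 and 2. The groups did not overlap, but the lower RBP-J KO library and the higher WT library came closer together than for Lst1. The RBP-J KO level of Aif1 was 2.83-fold that of WT in pair 1 and 3.64-fold in pair 2, with means of 1349 ± 569.8 FPKM in RBP-J KO and 439 ± 253 FPKM in WT (SD, n = 2 each) and a log2 difference of 1.68. Replicate 1 exceeded replicate 2 by 1.85-fold in RBP-J KO and by 2.38-fold in WT, more than for the other members. The median of this replicate ratio over 11433 genes above 0 in every library was 1.06 in RBP-J KO and 1.08 in WT. Without WT replicate 2, the lowest library for Aif1, the log2 difference was 1.06, a value that also holds the gap between the replicate numbers.

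Ltb was a low gene in all libraries. It was at 12.05 and 8.69 FPKM in RBP-J KO replicates 1 and 2, against 4.25 and 2.92 FPKM in WT replicates 1 and 2. The groups did not overlap. RefSeq places the microRNA gene Mir6973a inside Ltb, and reads of both cannot be told apart here. The fold of RBP-J KO over WT was 2.84 in pair 1 and 2.98 in pair 2, with means of 10.4 ± 2.38 FPKM in RBP-J KO and 3.585 ± 0.940 FPKM in WT (SD, n = 2 each). Its log2 difference was 1.31, and 0.84 when 5 in place of 1 was added before taking logarithms, since added constants shrink the differences of low genes.

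Tnf differed little. It was at 122 and 95.9 FPKM in RBP-J KO replicates 1 and 2, against 114 and 86.8 FPKM in WT replicates 1 and 2. The groups overlapped, with WT replicate 1 above RBP-J KO replicate 2. Tnf averaged 109 ± 18.3 FPKM in RBP-J KO and 100.4 ± 19.2 FPKM in WT (SD, n = 2 each), a gap smaller than the spread between the replicates of either genotype. The fold of RBP-J KO over WT was 1.07 in pair 1 and 1.10 in pair 2. The sign of the log2 difference of 0.12 turned without RBP-J KO replicate 1 (-0.05) or without WT replicate 2 (-0.08). Leaving out 1 library unbalances the replicate numbers. Tnf in replicate 1 exceeded replicate 2 by 1.27-fold in RBP-J KO and 1.31-fold in WT, so the turned sign cannot be told apart from that gap.

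**Figure D1:**
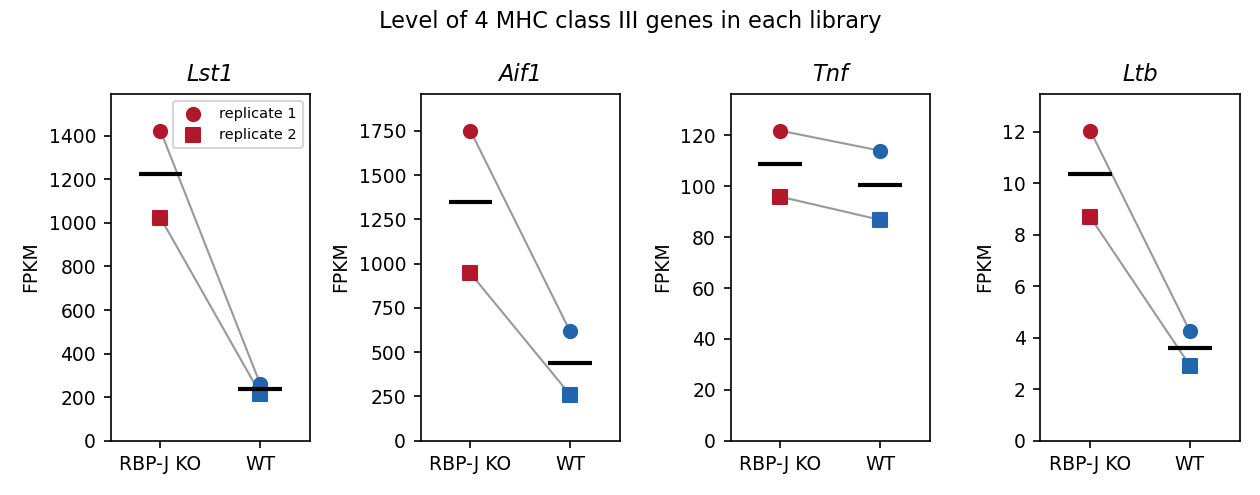
Level in FPKM (vertical axes, linear and starting at 0, scaled for each gene) of Lst1, Aif1, Tnf and Ltb in the 2 RBP-J KO (red) and 2 WT (blue) libraries, with circles for replicate 1, squares for replicate 2, grey lines joining equal replicate numbers and black bars for the group means. Lst1, Aif1 and Ltb lie higher in both RBP-J KO libraries, whereas the Tnf values of the genotypes overlap.

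Because FPKM are scaled by length, levels can also be compared between these genes. In RBP-J KO the order by mean was Aif1, Lst1, Tnf and Ltb, and the same order held in WT. In RBP-J KO, Lst1 and Aif1 did not differ beyond their spread, and Lst1 exceeded Aif1 in replicate 2. In WT, the ranges of Lst1 and Aif1 touched, with Lst1 replicate 1 (261 FPKM) just above Aif1 replicate 2 (260.1 FPKM). Tnf lay below Lst1 and Aif1 and above Ltb in all 4 libraries.

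The ratio between members shows how unequal the differences were. Lst1 was at 11.7 and 10.7 times the FPKM of Tnf in RBP-J KO replicates 1 and 2, against 2.29 and 2.49 times in WT replicates 1 and 2. Tnf was at 10.1 and 11.03 times the FPKM of Ltb in RBP-J KO, against 26.8 and 29.7 times in WT. Neither ratio overlapped between the genotypes. The ratio of Aif1 to Ltb did overlap, at 145 and 109 in RBP-J KO against 145 and 89.1 in WT (FPKM of Aif1 over FPKM of Ltb in each library).

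Set against all genes, 3 of the 4 members were at least 1.5-fold higher in RBP-J KO in both pairs (folds of FPKM + 1, as in all counts at this threshold), as were 457 of 11851 genes tested (3.86%), and 430 genes (3.63%) were at least 1.5-fold lower in both. Both RBP-J KO libraries lay above both WT libraries for the same 3 members and for 11.7% of the genes tested. The members were chosen from this contrast, so nothing is read from their share. All 4 passed the filter for testing, a mean of at least 1 FPKM. With limma and Benjamini-Hochberg adjustment over all genes, 0% of genes (0 of 11851) passed an adjusted p of 0.05, the smallest adjusted p being 0.294, and 524 genes had an unadjusted p under 0.05. This fit, which also gave the SE and adjusted p of single genes below, had no term for the replicate number and so ignores the pairs. With the replicate number as a block in limma, 0 genes passed, the smallest adjusted p being 0.064. No gene named in this section passed, Rbpj included.

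**Figure D2:**
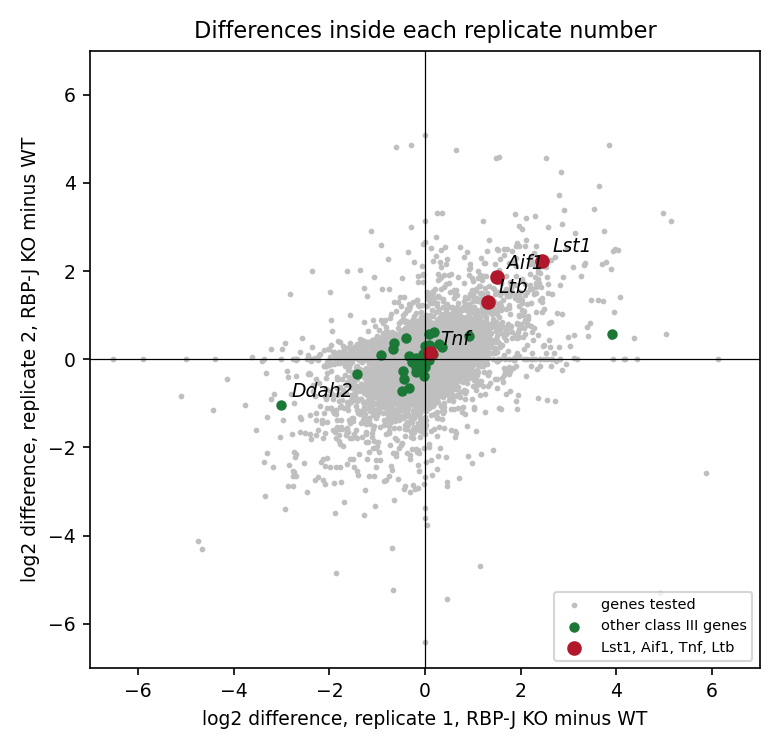
Log2 difference in FPKM + 1, RBP-J KO minus WT, in replicate 1 (horizontal) and replicate 2 (vertical) for the 11851 genes tested (grey), other genes of the MHC class III region (green) and the 4 members (red). Lst1, Aif1 and Ltb lie above 1 in both pairs, whereas Tnf sits near 0 among most of the region's other genes, with Ddah2 on the lower side in both.

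The promoters of the members were read for motifs of factors that act on immune genes. RefSeq promoter entries (build GRCm38.p6) matched 3 of the 4 members, all but Lst1. The 250 bases before the start site are shown because Aif1 and Ltb did not overlap between the genotypes and Tnf did. Capitals mark matches, on either strand, to the RBP-J core TGGGAA, the NF-kB pattern GGGNNNNNCC, the PU.1 core GAGGAA, the STAT pattern TTCNNNGAA, the AP-1 pattern TGANTCA or the TATA box TATAAA, and overlapping matches run together. The Aif1 window lies at chr17:35176053-35176302 on the minus strand, that of Ltb at chr17:35194257-35194506 on the plus strand and that of Tnf at chr17:35202008-35202257 on the minus strand.
Aif1: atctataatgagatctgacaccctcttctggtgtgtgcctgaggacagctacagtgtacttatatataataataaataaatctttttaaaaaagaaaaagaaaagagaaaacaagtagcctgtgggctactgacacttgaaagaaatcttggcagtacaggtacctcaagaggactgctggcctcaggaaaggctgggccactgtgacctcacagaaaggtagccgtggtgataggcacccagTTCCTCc
Ltb: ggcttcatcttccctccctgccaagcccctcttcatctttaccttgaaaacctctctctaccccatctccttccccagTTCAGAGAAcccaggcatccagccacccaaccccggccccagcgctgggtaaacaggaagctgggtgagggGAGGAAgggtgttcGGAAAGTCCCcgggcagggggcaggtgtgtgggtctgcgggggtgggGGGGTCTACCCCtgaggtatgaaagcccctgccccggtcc
Tnf: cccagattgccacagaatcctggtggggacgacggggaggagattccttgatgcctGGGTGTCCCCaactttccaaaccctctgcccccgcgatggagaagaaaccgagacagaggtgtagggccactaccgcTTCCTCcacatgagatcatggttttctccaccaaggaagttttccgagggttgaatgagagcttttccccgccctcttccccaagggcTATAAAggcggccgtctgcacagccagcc

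None of the 3 windows held the RBP-J core, which 21.6% of 32851 promoter windows of the same length held. The NF-kB pattern was found in Ltb and Tnf but not in Aif1, and in 45.8% of all windows. The matches lay with their first base 87 and 40 to 38 bases before the start site in Ltb, where 3 matches overlap and the middle one reads on both strands, and 194 bases before it in Tnf. The PU.1 core, the binding letters of the master factor of myeloid cells, occurred once in each of the 3 windows, 7 bases before the start site in Aif1, 101 in Ltb and 117 in Tnf, and in 23.3% of all windows. Ltb alone held the STAT pattern (7.02% of all windows) and Tnf alone a TATA box (12.4%), 29 bases before its start site, while none held the AP-1 pattern (6.75%). These matches describe letters and not binding.

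Other genes of the region, from Notch4 to Ddx39b, were listed by position. The list leaves out the protein-coding genes D17H6S56E-5 and D17H6S53E, of which D17H6S53E was measured and stayed within 1.5-fold in both pairs. Of the 52 genes listed, 38 were measured at a mean of at least 1 FPKM and 10 were listed at 0 in every library. On the FPKM + 1 scale, 0 of the 38 were at least 1.5-fold higher in both pairs (3.86% of all genes tested), 1 was at least 1.5-fold lower in both (3.63% of all genes tested), and 28 stayed within 1.5-fold in each pair. Counts this small do not set the list apart from all genes. Taken as folds of FPKM with no constant added, 1 of 36 genes above 0 in every library was higher in both pairs (Cfb) and 4 were lower (Ddah2, Hspa1a, Hspa1b and D17H6S56E-3), the last 3 at no more than 3.80 FPKM in any library. On this measure 473 of 11433 genes were higher in both pairs and 457 lower. The median log2 difference of the 38 genes was -0.09, beside -0.05 over all genes tested. With limma and Benjamini-Hochberg adjustment 0 passed, and 0 had an unadjusted p under 0.05. With the replicate number as a block in limma, 0 of the list passed, the smallest adjusted p being 0.242.

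In RefSeq order Aif1, Lst1, Ltb and Tnf follow one another among protein-coding genes, with the pseudogene Ncr3-ps between Aif1 and Lst1. On the Aif1 side, Prrc2a, a large RNA-associated protein, was at 244 and 278 FPKM in RBP-J KO replicates 1 and 2, against 308 and 263 FPKM in WT. Bag6, a chaperone for misplaced membrane proteins, was at 223 and 229 FPKM in RBP-J KO, against 227 and 247 FPKM in WT, and Apom was listed at 0 in all libraries. The values of the genotypes overlapped for both Prrc2a and Bag6.

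On the Tnf side, Lta, which encodes lymphotoxin alpha, the partner that Ltb anchors, was listed at 0 and at 1.26 FPKM in RBP-J KO replicates 1 and 2, against 0.83 FPKM and 0 in WT, below the filter for testing. Its higher library was thus of a different genotype in each pair. Nfkbil1, an IkB-like protein, was at 38.96 and 67.5 FPKM in RBP-J KO, against 31.6 and 53.1 FPKM in WT. Atp6v1g2, a subunit of the proton pump, was at 14.5 and 12.8 FPKM in RBP-J KO, against 7.25 and 8.59 FPKM in WT, which did not overlap (log2 difference 0.72, SE 0.28; limma adjusted p = 0.999 with Benjamini-Hochberg). It stayed under 1.5-fold in pair 2, with a log2 difference of 0.53.

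The listed gene at least 1.5-fold lower in both pairs on the FPKM + 1 scale was Ddah2, an enzyme of the family that breaks down methylated arginines. It was at 4.65 and 34.6 FPKM in RBP-J KO replicates 1 and 2, against 44.8 and 72.1 FPKM in WT (log2 difference -2.03, SE 0.93; limma adjusted p = 0.999 with Benjamini-Hochberg). The groups did not overlap, but the log2 difference was wider in pair 1 (-3.02) than in pair 2 (-1.04). Without RBP-J KO replicate 1 it was -0.70, a value that also holds the gap between the replicate numbers. Cfb, complement factor B, is named for its values and not by rule; it was at 397 and 6.97 FPKM in RBP-J KO, against 25.6 and 4.35 FPKM in WT, a fold of 15.5 in pair 1 and 1.60 in pair 2. The near-identical copies C4a and C4b, and Hspa1a and Hspa1b, may share reads and are counted with that uncertainty.

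**Figure D3:**
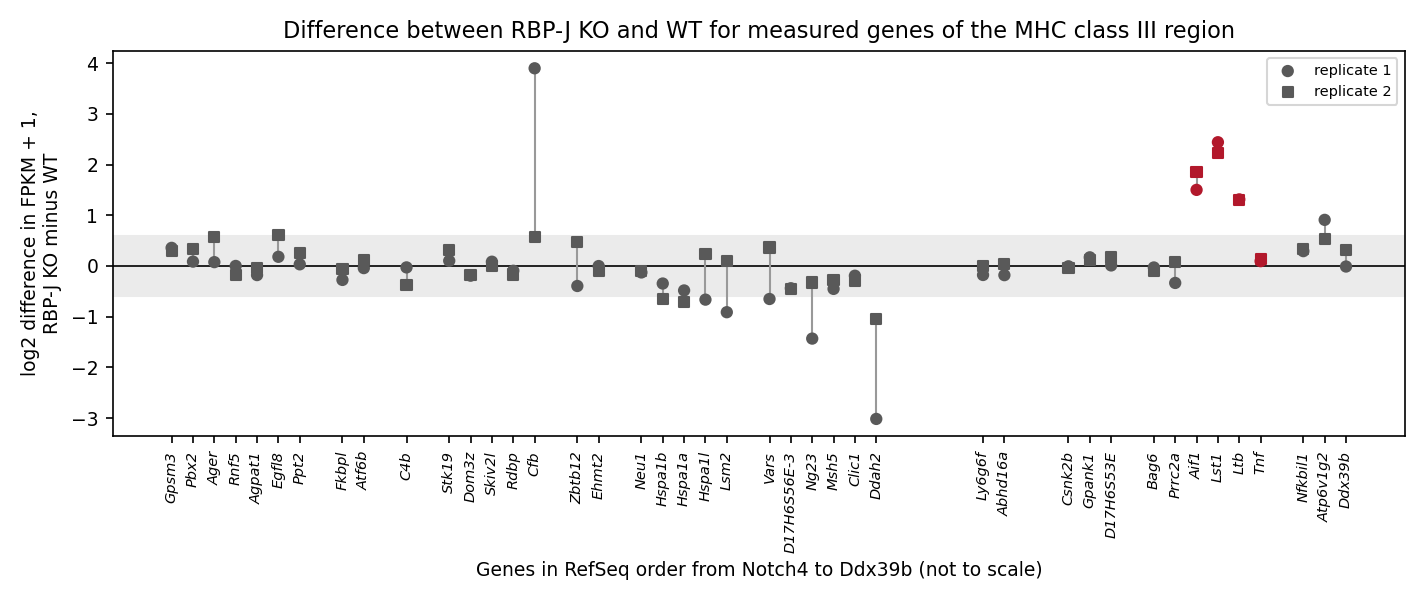
Log2 difference in FPKM + 1, RBP-J KO minus WT (vertical axis), for the measured protein-coding genes from Notch4 to Ddx39b in RefSeq order (horizontal axis, not to scale), with circles for replicate 1, squares for replicate 2 and a grey band for differences under 1.5-fold. Lst1, Aif1 and Ltb (red) stand above the band in both pairs next to Tnf inside it, and Ddah2 stands below it in both pairs.

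The receptors of the 2 cytokines were expressed in all libraries. Tnfrsf1a, the broadly expressed TNF receptor, was at 634 and 612 FPKM in RBP-J KO replicates 1 and 2, against 625 and 499.6 FPKM in WT, which overlapped. Tnfrsf1b, the TNF receptor of leukocytes, was at 619.95 and 414 FPKM in RBP-J KO, against 382 and 331 FPKM in WT, without overlap (log2 difference 0.51, SE 0.26; limma adjusted p = 0.999 with Benjamini-Hochberg). Ltbr, the receptor of the surface lymphotoxin that Ltb anchors, was at 241 and 238 FPKM in RBP-J KO, against 229.5 and 198 FPKM in WT, without overlap (log2 difference 0.17, SE 0.18).

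Of the 39 measured genes of a list of ligands, receptors, processing enzymes, mRNA regulators and signalling proteins of TNF and lymphotoxin, 1 was at least 1.5-fold higher in both pairs and 0 were at least 1.5-fold lower, beside 3.86% and 3.63% of all genes tested. That gene was Zfp36l1, an RNA-binding protein that promotes decay of mRNAs with AU-rich elements. Zfp36l1 was at 225 and 193 FPKM in RBP-J KO replicates 1 and 2, against 147 and 117 FPKM in WT (log2 difference 0.67, SE 0.21; limma adjusted p = 0.999 with Benjamini-Hochberg). By any amount, 21 genes of the list were higher in both pairs and 6 lower, beside 25.1% and 34.1% of all genes tested. The median log2 difference of the list was 0.13, beside -0.05 over all genes. It was 0.19 in pair 1 and 0.11 in pair 2, beside -0.05 and -0.02 over all genes. Without RBP-J KO replicate 1, which unbalances the replicate numbers, it was 0.012. With limma and Benjamini-Hochberg adjustment 0 of the list passed, and 1 had an unadjusted p under 0.05. The block on the replicate number also passed 0 of the list in limma, with a smallest adjusted p of 0.182.

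A further list held 12 genes described as partners or relatives of the Lst1 and Aif1 proteins. Of its 11 measured genes 0 were at least 1.5-fold apart in both pairs, beside 3.86% higher and 3.63% lower of all genes tested. A list this small is not set apart from all genes by that count. Its median log2 difference was 0.02, beside -0.05 over all genes. With limma 0 passed the adjusted threshold and 0 had an unadjusted p under 0.05. With the replicate number as a block in limma, 0 passed as well, the smallest adjusted p being 0.279. Aif1l, the paralog of Aif1, was listed at 0 in all libraries. Lcp1, an actin bundler that binds Iba1, was at 4806 and 3474 FPKM in RBP-J KO, against 4755 and 3692 FPKM in WT. Ptpn6, the phosphatase SHP-1 that docks on inhibitory receptors, was at 1354 and 1039 FPKM in RBP-J KO, against 845 and 805 FPKM in WT. Both were named once their values were known. Ptpn6 did not overlap between the genotypes, and Lcp1 did.

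The genes with the most similar profile to each member were found by the Euclidean distance between log2(FPKM + 1) values over the 4 libraries, each gene centred on its own mean. Nearest to Lst1 were Atp10d (distance 0.09), Fam26f (0.15) and Tgtp1 (0.17). Atp10d was at 55.3 and 37.01 FPKM in RBP-J KO replicates 1 and 2, against 9.29 and 7.73 FPKM in WT. Nearest to Aif1 were 4833422F24Rik (0.05), Ly6e (0.17) and C630043F03Rik (0.18), of which Ly6e, a GPI-anchored surface protein, was at 8836 and 4842 FPKM in RBP-J KO, against 2931 and 1460 FPKM in WT. Nearest to Ltb were Cyfip2 (0.10), Daxx (0.13) and Clec4a1 (0.21), and Cyfip2 was at 189 and 131 FPKM in RBP-J KO, against 69.7 and 55.4 FPKM in WT. Nearest to Tnf were Gabpb2 (0.02), Traf3ip1 (0.03) and Zswim7 (0.03). No member was among the 3 nearest of another. With 4 libraries many genes have like profiles, and Aif1 stood at place 61 from Lst1, and Ltb at place 71. From Aif1, Ltb stood at place 72 and Lst1 at place 191. From Ltb, Aif1 stood at place 251 and Lst1 at place 884. The genes 4833422F24Rik and C630043F03Rik were low, at no more than 5.88 FPKM in any library and at 0 in WT replicate 2.

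Markers of the labelled cell type were present, and those of most others were low. All 8 macrophage markers (Csf1r, Emr1, Cd68, Itgam, Fcgr1, Mertk, Lyz2 and Cd14) were above 0 in every library, with sums of 19091 and 12556 FPKM in RBP-J KO replicates 1 and 2, against 16834 and 15405 FPKM in WT. By any amount, 2 of the 8 were higher in RBP-J KO in both pairs and 3 lower, beside 25.1% and 34.1% of all genes tested. Of the 2 higher, Fcgr1 was at 987 and 391 FPKM in RBP-J KO, against 765 and 287 FPKM in WT. Mertk was at 366 and 237 FPKM in RBP-J KO, against 245 and 205 FPKM in WT. The 3 lower were Lyz2, Cd14 and Cd68. Among the lower markers Lyz2, the gene whose promoter drives the Cre, was at 94.3 and 115 FPKM in RBP-J KO, against 218 and 192 FPKM in WT. Whether the controls carried Cre is not labelled, so for Lyz2 carriage of the Cre cannot be told apart from loss of RBP-J. Cd14, also among the lower, was at 764 and 800 FPKM in RBP-J KO, against 1715 and 1570 FPKM in WT. Lst1 and Ltb are also used by other leukocytes, and in bulk RNA a change in the share of a cell type cannot be told apart from a change of RNA per cell. The 10 neutrophil markers listed summed to 8348 and 1136 FPKM in RBP-J KO, against 7052 and 353 FPKM in WT. Of them, 7 were higher in RBP-J KO in both pairs by any amount and 0 lower, beside the same 25.1% and 34.1% of all genes tested. The neutrophil sum was higher in RBP-J KO inside each pair, as were Lst1, Aif1, Ltb and, by a small amount, Tnf. Elane, Mpo and Cxcr2 were at least 1.5-fold higher in both pairs, beside 3.86% of all genes tested. The neutrophil markers Ngp, Ltf and Mmp8 were lower in RBP-J KO in pair 1, with folds of 0.97, 0.97 and 0.79. They were higher in pair 2.

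For Ltb, lymphocyte markers are the closest check. The 8 B cell markers given here summed to 34.85 and 25.95 FPKM in RBP-J KO replicates 1 and 2, against 17.65 and 6.93 FPKM in WT. Cd79b, a chain of the B cell receptor complex, was at 20.7 and 25.95 FPKM in RBP-J KO, against 9.90 and 6.93 FPKM in WT, a fold of 2.09 in pair 1 and 3.74 in pair 2 beside 2.84 and 2.98 for Ltb. Cd79b made up the whole sum in replicate 2, where Cd79a, Ms4a1 and Pax5 were listed at 0 in both genotypes. The 8 T cell markers summed to 48.2 and 277 FPKM in RBP-J KO, against 30.45 and 173 FPKM in WT. Most of each sum was Cd28, at 42.1 and 277 FPKM in RBP-J KO, against 29.8 and 173 FPKM in WT. Cd28 was higher in RBP-J KO by 1.41-fold in pair 1 and 1.60-fold in pair 2. It alone of these markers was above 0 in replicate 2, and Cd3d was at 0 in every library. The 7 NK cell markers summed to 9.44 and 0 FPKM in RBP-J KO, against 7.71 and 0 FPKM in WT. The part of lymphocyte RNA in the difference of Ltb was not tested.

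The 7 dendritic cell markers summed to 77.4 and 2.77 FPKM in RBP-J KO replicates 1 and 2, against 7.14 and 2.39 FPKM in WT, highest in RBP-J KO replicate 1. Of these, 3 were higher in RBP-J KO in both pairs by any amount and 0 lower, beside 25.1% and 34.1% of all genes tested. Among the 3 was Flt3, a growth factor receptor, at 12.7 and 1.04 FPKM in RBP-J KO, against 0.88 and 0 FPKM in WT. Mast cell and basophil markers, 5 in number, summed to 29.9 and 2.01 FPKM in RBP-J KO, against 3.84 and 0 FPKM in WT. The 5 erythroid markers summed to 6.63 and 0 FPKM in RBP-J KO, against 2.26 and 0 FPKM in WT, and the 6 stromal markers to 3.93 and 0 FPKM in RBP-J KO, against 6.32 and 0.81 FPKM in WT. The part of neutrophil, dendritic cell and mast cell RNA in the differences of the members was not tested.

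**Figure D4:**
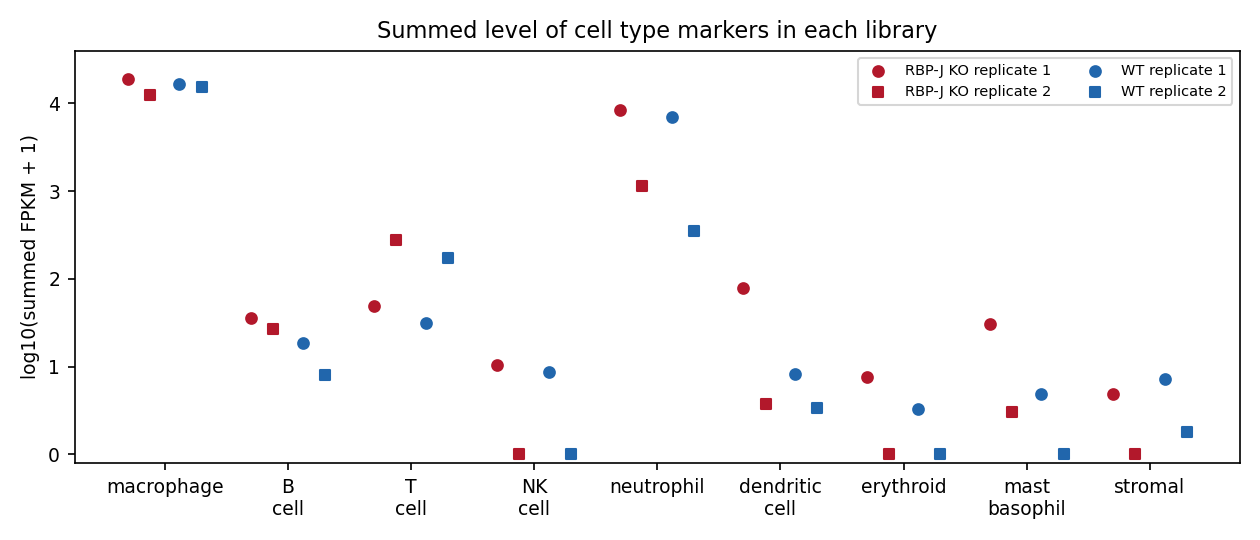
Summed level of each list of cell type markers (vertical axis, log10 of summed FPKM + 1) in the RBP-J KO (red) and WT (blue) libraries, with circles for replicate 1 and squares for replicate 2. Macrophage sums lie between 12556 and 19091 FPKM, neutrophil sums separate the replicate numbers, and dendritic cell sums are highest in RBP-J KO replicate 1.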

How the data were processed

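RNA was measured in 4 libraries, grouped by sample title. Per the submitters' processing notes, reads were handled with TopHat and Cufflinks on build mm9; no version and no annotation is stated there. The authors deposited values read here as FPKM, the unit of Cufflinks, although no header names a unit. Low values give no read counts, so depth could not be derived and intervals for counting error were not given. In replicate 1, 22026 genes are listed, and in replicate 2, 27583 transcripts, which were summed per symbol (each member has 1 transcript there); 25 symbols turned into dates were restored by their description. Values were taken as log2(FPKM + 1), and genes whose mean reached 1 FPKM were fitted with limma 3.58.1 in R 4.3.3 (group term, variance trend, two-sided, Benjamini-Hochberg over all genes), after the procedure was tested on simulated data. Tables and figures used Python 3.11.15 and matplotlib 3.10.9. The members and gene lists were chosen with earlier results of these data known. Named genes are the members, Rbpj, the cytokine receptors, the 3 neighbours on either side, list genes at least 1.5-fold apart in both pairs and the 3 nearest profiles. Single cell type markers were named once their values were known. Alternatives were another pseudocount, filter, scaling or transcript choice, a replicate block, and each library left out. Positions are from RefSeq on GRCm38.p6, not from mm9. A marker of the B cell list is not reported here.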

Additional observations from a re-analysis of the deposited data

How the results depend on the processing

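Leaving out each library in turn gave log2 differences from 2.10 to 2.58 for Lst1, 1.06 to 2.30 for Aif1, 1.09 to 1.52 for Ltb and -0.08 to 0.31 for Tnf. Each value with a library left out sets 1 library against the mean of 2, so it also holds the gap between the replicate numbers. Upper-quartile scaling and quantile normalization kept Lst1 between 2.40 and 2.41, Aif1 between 1.74 and 1.79, Ltb between 1.32 and 1.36 and Tnf between 0.15 and 0.18. With a pseudocount of 5, Ltb was at 0.84, and 282 genes in place of 430 were at least 1.5-fold lower in both pairs; the constant itself shrinks low genes. In the class III list, 1 of 38 genes was higher (Cfb) and 3 lower in both pairs with a pseudocount of 0.1. Over all 11851 genes, 541 were then higher and 506 lower. Under upper-quartile scaling 2 of the list were higher (Atp6v1g2 and Cfb) and 1 lower, beside 521 and 378 of all genes. Under quantile normalization 1 was higher (Cfb) and 2 lower, beside 488 and 413 of all genes. The cause of these changes was not tested. The median of the TNF and lymphotoxin list was 0.19 under upper-quartile scaling and ran from 0.012 to 0.24 when libraries were left out. That of the partner list was 0.083 under upper-quartile scaling, 0.069 under quantile normalization, and from -0.0029 to 0.15 with libraries left out, and that of the class III list ran from -0.086 to 0.015 in the same way. With folds of FPKM and no constant, an alternative chosen after seeing the data, the class III list had 1 gene higher and 4 lower in both pairs. Over all 11433 genes of that measure, 473 were higher and 457 lower. Of 184 recomputed values, 163 moved by less than the spread or, for counts, by at most 1.5 times. This tally does not measure stability. For a member, leaving out 1 library cannot move the difference by more than the spread used. The counts of genes past an adjusted p in limma were 0 in every setting, and they are among the 163. Equal replicate numbers deviated together over genes (r = 0.64), but no label says what they share. Replicates 1 and 2 also differed in Ddx3y, in Xist and in being listed by gene or by transcript. The part of these in the shared deviations was not tested. With the replicate number as a block, limma passed 0 genes, with 1557 in place of 524 at an unadjusted p under 0.05. Counts over both pairs could not be made with a library left out.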
